A study of Mus musculus with 8 samples.

Results

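The granule proteases of mast cells were examined as a set of 10 genes, *Cpa3*, *Cma1*, *Tpsb2*, *Tpsab1*, *Tpsg1*, *Mcpt1*, *Mcpt2*, *Mcpt4*, *Mcpt8* and *Gzmb*, chosen by gene symbol. All 10 were among the 24059 gene symbols with counts, and 8 of them were among the 14934 genes with enough counts to be tested. *Mcpt1* and *Tpsab1* had too few. The cells were bone marrow–derived mast cells (BMMCs), obtained from C57BL/6 mice by culture of marrow with IL-3 for at least 4 wk. They then received Cas9 ribonucleoproteins (RNPs) with guides either against *Zc3h12a*, the gene of the RNA-degrading protein Regnase-1, or with a scrambled sequence that has no target. RNA of resting cells was collected after 1 wk more in culture, and its poly(A) fraction was sequenced. There were 4 samples with Scrambled RNP (labelled *Zc3h12a* WT) and 4 with *Zc3h12a* RNP (labelled *Zc3h12a* KO), numbered 1 to 4 in each group. The study's design names 4 mice, and samples that share a number were treated as a pair, although the sources do not state that the culture of each mouse received both RNPs. The *Zc3h12a* RNP samples are pools of edited cells, not clones. The comparison asks whether resting mast cells edited at *Zc3h12a* carry other amounts of protease mRNA.

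Mast cells store neutral proteases at high concentration in their granules, bound to the proteoglycan serglycin, and release them within minutes when IgE on their surface is crosslinked. The proteases fall into chymases and their relatives (*Cma1*, also called mMCP-5, and *Mcpt1*, *Mcpt2* and *Mcpt4*), tryptases (*Tpsb2*, or mMCP-6, *Tpsab1*, or mMCP-7, and the membrane-anchored *Tpsg1*) and the metallo-exopeptidase carboxypeptidase A3 (*Cpa3*). *Mcpt1* and *Mcpt2* are typical of mucosal mast cells and *Mcpt4*, *Cma1*, *Tpsb2* and *Cpa3* of connective tissue mast cells, whereas *Mcpt8* is best known from basophils and *Gzmb*, granzyme B, from cytotoxic lymphocytes and from cultured mast cells.

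The members sit at 3 places in the genome (GRCm39, the build of the counts, with positions from GENCODE's annotation). *Cma1*, *Mcpt1*, *Mcpt2*, *Mcpt4*, *Mcpt8* and *Gzmb* lie within 321 kb of chromosome 14, from 56178908 to 56499717. *Tpsab1*, *Tpsb2* and *Tpsg1* lie on chromosome 17 between 25562212 and 25593417, and *Cpa3* is alone on chromosome 3 at 20269774–20296362. *Tpsb2* and *Tpsab1* are neighbours and had identical bases over 67.3% of the longer coding sequence when aligned, and *Mcpt1* and *Mcpt4* over 86.5%. Over the annotated transcripts, 0% of the stretches of 50 bases of *Mcpt1*, *Tpsb2*, *Tpsab1*, *Mcpt8* and *Gzmb* recurred in another gene's transcript. The share was 8.03% for *Mcpt4* (with *Cma2*), 7.43% for *Cpa3* and 7.10% for *Tpsg1* (with genes that overlap them), 5.38% for *Cma1* and 1.58% for *Mcpt2*. A small part of the reads of these genes could thus have been counted elsewhere, or some reads of the other genes counted for them. The strand setting of the counting is not given in the sources used here, so reads of *Tpsg1* and of the overlapping *Cacna1h* on the opposite strand cannot be told apart where they overlap.

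*Tpsab1* was the member with the fewest reads, and C57BL/6 mice are known to lack its protease because of a defect at a splice donor, the start of an intron. The genome used for the counts is that of C57BL/6, and this donor is shown because the annotated *Tpsab1* gene can be set beside its neighbour *Tpsb2* at the matching place. Both windows hold the last 20 bases of an exon of 166 bases and the first 20 bases of the intron after it, 5′ to 3′ along the gene. The capitals mark the first bases of the intron, which are GT at a standard donor. *Tpsb2* is at chr17:25585880-25585919 on the plus strand and *Tpsab1* at chr17:25564004-25564043 on the minus strand of GRCm39.
Tpsb2: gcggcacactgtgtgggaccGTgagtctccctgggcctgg
Tpsab1: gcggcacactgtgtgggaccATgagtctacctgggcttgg
The windows differed at 3 of 40 positions, written with the base of *Tpsb2* first and counted from the left end of the window, G21A, C29A and C37T. Position 21 is the first base of the intron. The 20 exon bases were identical. In the annotation, 8 of 9 *Tpsab1* introns began with GT, and every annotated intron of the other 9 members did. The *Tpsab1* donor shown was used by 3 of its 8 annotated transcripts, and the *Tpsb2* donor by 8 of 18.

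*Mcpt1* and *Mcpt4* are shown next for the 250 bases before their start sites, because these were far more alike than those of any other members although the mRNA levels of both genes were far apart. The sequences are from RefSeq on GRCm38.p6, which had promoters for 7 of the 10 members (all but *Mcpt2*, *Tpsb2* and *Tpsab1*). *Mcpt1* is at chr14:56017714-56017963 on the plus strand and *Mcpt4* at chr14:56062311-56062560 on the minus strand. The capitals mark GATAAG, a motif of GATA factors such as GATA2, which mast cells need.
Mcpt1: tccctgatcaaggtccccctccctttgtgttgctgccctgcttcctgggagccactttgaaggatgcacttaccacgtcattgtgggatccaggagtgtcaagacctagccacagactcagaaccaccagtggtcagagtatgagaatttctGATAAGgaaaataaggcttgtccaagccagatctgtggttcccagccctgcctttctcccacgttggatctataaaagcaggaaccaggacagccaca
Mcpt4: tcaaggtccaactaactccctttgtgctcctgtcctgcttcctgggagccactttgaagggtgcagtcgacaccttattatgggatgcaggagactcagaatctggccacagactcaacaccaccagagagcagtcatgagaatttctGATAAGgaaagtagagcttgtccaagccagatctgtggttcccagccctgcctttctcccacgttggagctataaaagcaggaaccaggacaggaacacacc
When aligned, 207 of 250 bases were identical (82.8%), while the next most alike pair, *Mcpt8* and *Tpsg1*, had 51.6%. GATAAG began at base -98 from the start of *Mcpt1* and at base -102 from that of *Mcpt4*. It was also found at base -92 from 1 of 2 annotated starts of *Tpsg1*. It was found in no other member promoter on either strand, which says only that these letters are not in those windows. Of 32817 mouse promoters of the same length, 6.56% held it on either strand.

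The proteases separated into an abundant and a scarce group, with no member in between. Levels are given as CPM, counts divided by the TMM-normalized library size and scaled in the usual way. Levels of members are compared with each other as CPM per kb of transcript, apart from ranks, shares and ratios by count. Marker genes are given in CPM without regard to length. By the mean of all 8 samples, *Cpa3* was highest at 19979 CPM per kb, followed by *Cma1* at 7611, *Tpsb2* at 4906, *Gzmb* at 1399 and *Tpsg1* at 538. The other 5 were at 7.05 (*Mcpt2*), 5.49 (*Mcpt8*), 4.32 (*Mcpt4*), 0.218 (*Mcpt1*) and 0.0344 (*Tpsab1*) CPM per kb. *Tpsg1*, the lowest of the abundant group, was thus 76.3 times as high as *Mcpt2*, the highest of the scarce group. *Mcpt4* was 19.8 times as high as *Mcpt1*, whose promoter is so similar. The order of the 5 highest was the same in each of the 8 samples. Ranges over the 8 samples overlapped for the neighbours *Cma1* and *Tpsb2*, although *Cma1* was higher in 8 of 8 samples. They also overlapped for *Mcpt2* and *Mcpt8* and for *Mcpt8* and *Mcpt4*, where the first gene was higher in 7 of 8, so these 3 scarce genes were not apart beyond their spread. Lengths over all annotated exons gave the same order of the 10 genes.

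**Figure D1:**
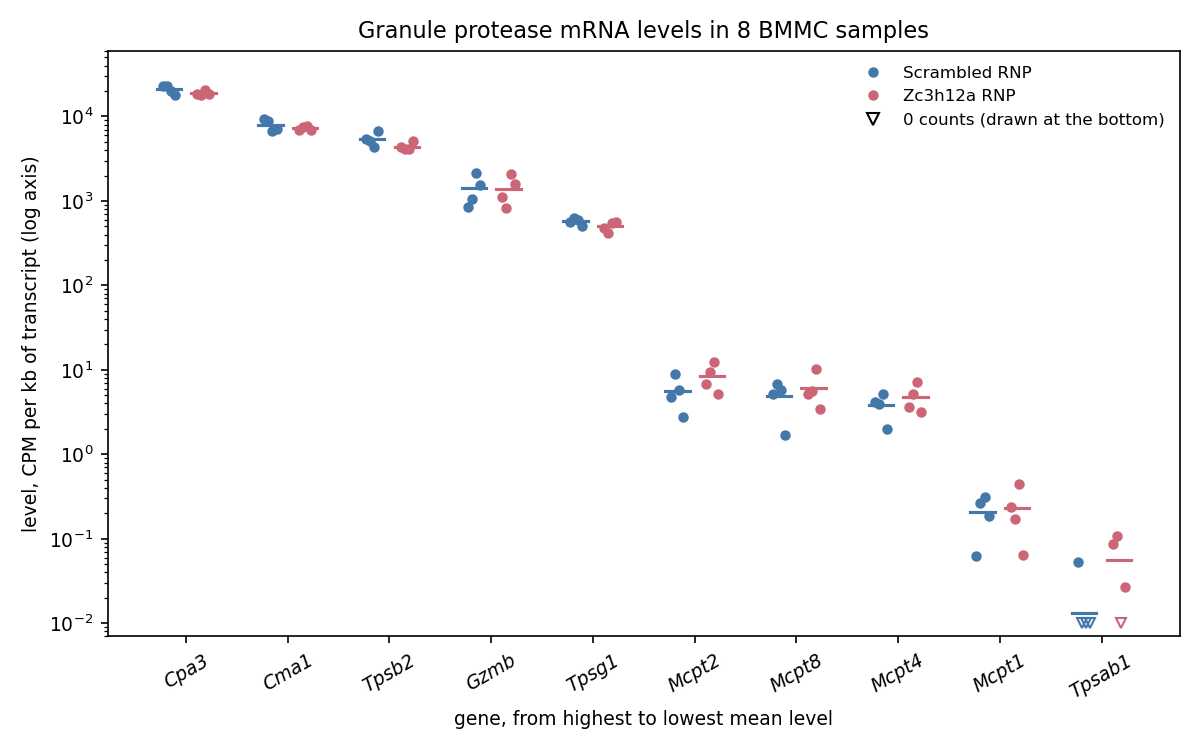
mRNA levels of the 10 granule protease genes in CPM per kb of transcript on a log axis, with 1 point per sample (4 Scrambled RNP and 4 *Zc3h12a* RNP samples) and a line at each group's mean. Open triangles are samples with 0 counts. The 5 genes on the left lie between 420 and 23198, the 3 genes *Mcpt2*, *Mcpt8* and *Mcpt4* between 1.71 and 12.6, and the groups overlap for every gene.

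*Cpa3*, the carboxypeptidase that trims peptides cut by chymase, had the highest count of all genes in each of the 8 libraries and took 2.58% to 3.36% of all counts in a library. The 10 members together took 4.54% to 5.22% of counts with Scrambled RNP and 4.04% to 4.90% with *Zc3h12a* RNP (means 4.83% ± 0.302 and 4.51% ± 0.385, SD, n = 4 each), and the share was higher after *Zc3h12a* RNP in 1 of 4 pairs. By count, without regard to length, *Cma1* ranked 4 to 10 among all genes, *Tpsb2* 4 to 12, *Gzmb* 21 to 66 and *Tpsg1* 100 to 195. *Mcpt2*, highest of the scarce genes per length, ranked 7619 to 11060.

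Neighbouring members differed widely in level. The locus on chromosome 14 was taken from *Cma1* to *Gzmb*, so these abundant genes are at its ends by choice. It holds 15 protein-coding genes (14 with counts, 6 of them members). *Cma1* had 6677 to 9242 CPM per kb and *Gzmb* 825 to 2155 CPM per kb over the 8 samples. *Mcpt1*, *Mcpt2*, *Mcpt4* and *Mcpt8*, which lie between them, had at most 12.6 CPM per kb in any sample. On chromosome 17, *Tpsb2* had 4073 to 6756 CPM per kb and the adjoining *Tpsg1* 420 to 625 CPM per kb, while *Tpsab1*, whose left end is 23.0 kb from that of *Tpsb2*, had at most 0.108 CPM per kb. *Cacna1h*, which overlaps *Tpsg1* on the opposite strand, was counted at 0.00526 to 0.0930 CPM per kb.

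**Figure D2:**
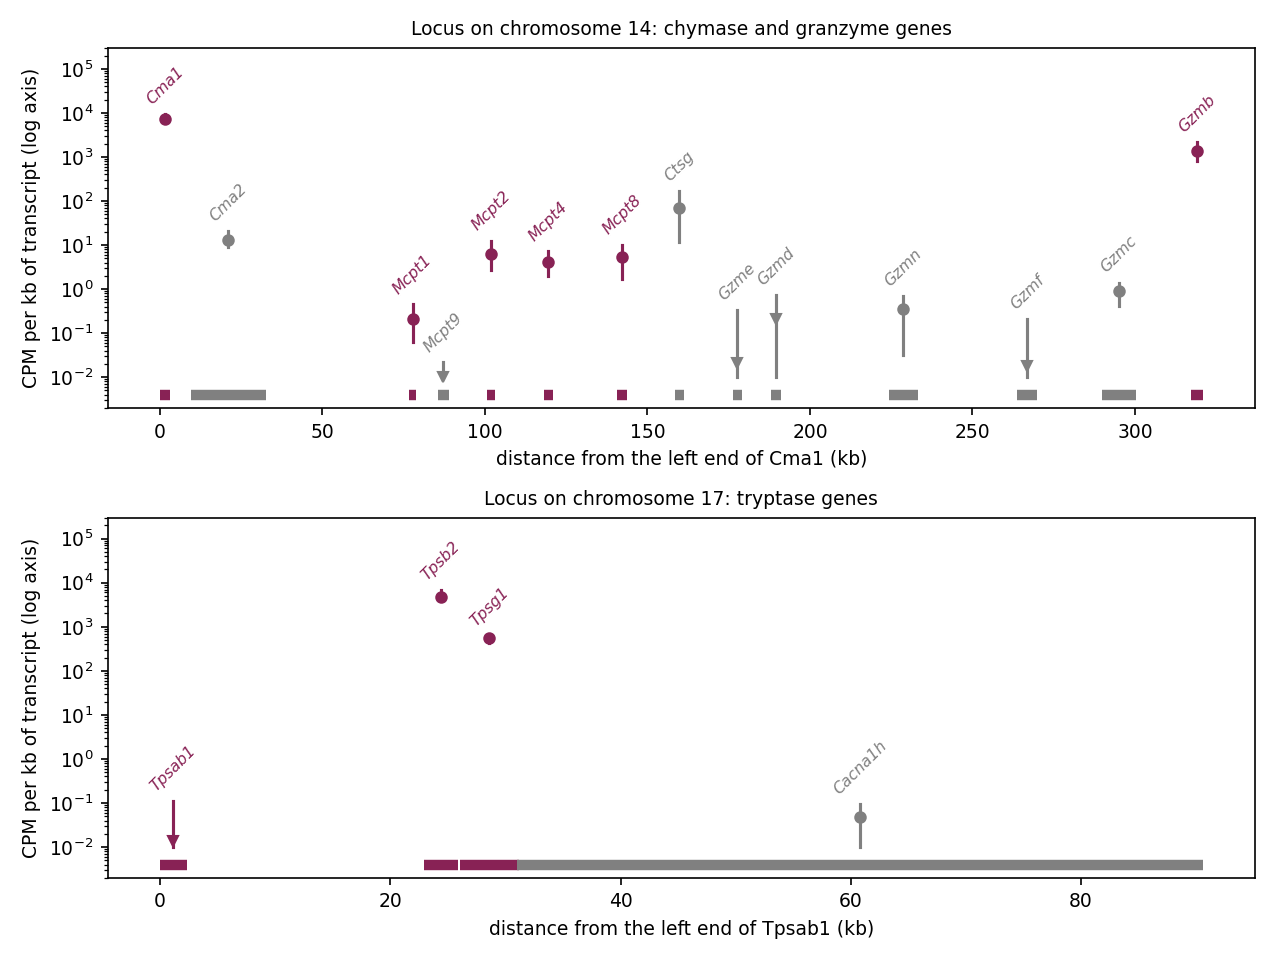
CPM per kb of transcript (log axis) of the protein-coding genes in the chymase and granzyme locus on chromosome 14 (top) and the tryptase locus on chromosome 17 (bottom) against distance in kb from the left end of *Cma1* or *Tpsab1*, with members in purple and other genes in grey. Points are medians and vertical lines the range of the 8 samples (triangles, at least 1 sample with 0 counts; values under 0.01 are drawn at 0.01), and the bars at the bottom are the gene bodies. The chromosome 14 locus was cut at *Cma1* and *Gzmb*, which have medians of 7296 and 1334 CPM per kb.

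*Tpsab1* had 2, 0, 0 and 0 counts in the Scrambled RNP samples, in order of number, and 3, 3, 0 and 1 in the *Zc3h12a* RNP samples. No library had more than 3 counts, the upper limit used here for a count of 0, so no fold is given. *Mcpt1*, the mucosal chymase mMCP-1, had 2, 8, 8 and 4 counts and 7, 4, 11 and 2 counts. Its exact 95% Poisson interval was 5.49 to 19.7 counts in the highest library and 0.242 to 7.22 in the lowest. The intervals overlapped, which is no test of a difference, and its differences between samples were not tested. These intervals cover counting error only.

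Between the RNPs, 0 of the 8 tested members passed both thresholds, a log2 fold change beyond 0.5 and an adjusted p of at most 0.05 (quasi-likelihood test of edgeR with the pair as a block, Benjamini-Hochberg adjustment over all genes tested). Among all genes tested 0% passed (0 of 14934) with a lowest adjusted p of 0.0704. DESeq2 called 60 genes and limma-trend 1, and neither called a member. At an unadjusted p at or under 0.05 there were 2 of 8 members, *Mcpt2* and *Tpsb2*, where all genes gave 926 (6.2%). Without the block *Mcpt2* and *Tpsb2* had an unadjusted p of 0.136 and 0.0856 (edgeR). By direction in the pairs, 1 of 8 members was higher in 4 of 4 (*Mcpt2*; 4.98% of all genes) and 1 of 8 was lower in 4 of 4 (*Tpsb2*; 8.54%). The median log2 fold change was -0.067 over the 8 members and 0.038 over all genes, with 3 members above 0 and 5 below. The 3 above 0 were the scarce *Mcpt2*, *Mcpt4* and *Mcpt8*, and the 5 below 0 were the 5 abundant genes, of which *Gzmb* was above 0 with total counts or upper-quartile factors in place of TMM. Whether other genes of like level split in the same way was not tested. The 20 genes with the most counts in a library took 15.3% of counts with Scrambled RNP and 14.3% with *Zc3h12a* RNP (means). That share was higher after *Zc3h12a* RNP in 0 of 4 pairs. With total counts the median was 0.00044 over the members and 0.11 over all genes. In bulk RNA, fewer cells of a type and less RNA per cell cannot be told apart. The labels do not tie a replicate number to a mouse, so p-values measure the spread between these samples, which may be partly technical.

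Among the chymases, *Mcpt2*, known as mMCP-2, had 5.07, 9.56, 6.14 and 2.90 CPM in samples 1 to 4 with Scrambled RNP. In samples 1 to 4 with *Zc3h12a* RNP it had 7.28, 10.01, 13.3 and 5.55 CPM. The *Zc3h12a* RNP sample was the higher of each pair, but the groups overlapped, since *Zc3h12a* RNP samples 1 and 4 were below Scrambled RNP sample 2. The means were 5.92 ± 2.78 and 9.04 ± 3.39 CPM (SD, n = 4 each), and the log2 fold change was 0.65 with a standard error of 0.21 (edgeR, unadjusted p = 0.0153, adjusted p = 0.671). Differences per pair were 0.52, 0.065, 1.11 and 0.92 on the log2 scale, small in pair 2 and largest in pair 3, and with DESeq2's size factors in place of TMM the difference in pair 2 was -0.066. The exact two-sided sign-flip test over the pairs gave p = 0.125, the smallest that 4 pairs allow. Without replicate 2, the pair with the smallest difference, *Mcpt2* passed both thresholds, with a log2 fold change of 0.91 (edgeR, adjusted p = 0.0342). In that run 156 of all genes tested passed. Without replicate 1, 3 or 4 *Mcpt2* did not pass (log2 fold change 0.74, 0.44 and 0.56). The level of *Mcpt2* rested on 61 to 324 counts a library, and its lowest library, Scrambled RNP sample 4, had an exact 95% interval of 46.7 to 78.4 counts.

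*Mcpt4*, the chymase of connective tissue mast cells, had 4.60, 4.40, 5.75 and 2.24 CPM with Scrambled RNP and 4.06, 5.81, 7.94 and 3.47 CPM with *Zc3h12a* RNP. It was higher in 3 of 4 pairs and the groups overlapped. Its log2 fold change was 0.33 with a standard error of 0.24 (edgeR, adjusted p = 0.966; exact sign-flip p = 0.25), and was 0.54 without replicate 1. *Cma1*, which has an elastase-like specificity in rodents despite its name, had 10074, 9754, 7278 and 7700 CPM and 7510, 8206, 8374 and 7467 CPM. Scrambled RNP samples 1 and 2 were the highest of the 8, and the other 6 were between 7278 and 8374. The log2 fold change of *Cma1* was -0.13 with a standard error of 0.12 (edgeR, adjusted p = 0.966; exact sign-flip p = 0.375), and without replicate 1 its sign turned, to 0.014.

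Among the tryptases, *Tpsb2*, the main soluble tryptase, had 6664, 6451, 5399 and 8418 CPM in samples 1 to 4 with Scrambled RNP. In samples 1 to 4 with *Zc3h12a* RNP it had 5490, 5098, 5075 and 6312 CPM. It was lower after *Zc3h12a* RNP in each pair, while Scrambled RNP sample 3 was below *Zc3h12a* RNP samples 1 and 4, so the groups overlapped. The means were 6733 ± 1252 and 5494 ± 578 CPM (SD, n = 4 each), and the log2 fold change was -0.28, with 0.089 as standard error (edgeR, unadjusted p = 0.0146, adjusted p = 0.669). Differences per pair were -0.28, -0.34, -0.089 and -0.42, and the exact sign-flip test gave p = 0.125, again the smallest possible. *Tpsg1*, the tryptase with a transmembrane anchor, had 894, 991, 938 and 807 CPM and 764, 666, 873 and 884 CPM. It was lower in 3 of 4 pairs and higher in pair 4, and its log2 fold change was -0.19 with a standard error of 0.12 (edgeR, adjusted p = 0.966; exact sign-flip p = 0.375). Without replicate 2 it was -0.0054.

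*Cpa3* had 34240, 33983, 29737 and 26728 CPM with Scrambled RNP and 27073, 26761, 30488 and 26908 CPM with *Zc3h12a* RNP. The difference on the log2 scale was -0.34 in both pair 1 and pair 2, and 0.036 and 0.0097 in pairs 3 and 4. The log2 fold change was -0.16 with a standard error of 0.10 (edgeR, adjusted p = 0.966; exact sign-flip p = 0.5), and it was -0.055 without replicate 1, -0.036 without replicate 2 and -0.28 without replicate 3. *Gzmb*, a serine protease that cuts after aspartate, had 1230, 1506, 3094 and 2241 CPM and 1590, 1185, 2975 and 2254 CPM. Its group means nearly coincided (2018 ± 835 and 2001 ± 785 CPM, SD, n = 4 each), and its log2 fold change was -0.0059 with a standard error of 0.12 (edgeR, adjusted p = 0.995; exact sign-flip p = 1). *Mcpt8*, the protease mMCP-8, had 4.37, 5.73, 4.80 and 1.43 CPM and 4.30, 4.72, 8.51 and 2.86 CPM. The pairs were split, with 2 higher and 2 lower, and the groups overlapped. Its log2 fold change was 0.37 with a standard error of 0.30 (edgeR, adjusted p = 0.966; exact sign-flip p = 0.5). It was 0.64 without replicate 2 and 0.16 without replicate 3.

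**Figure D3:**
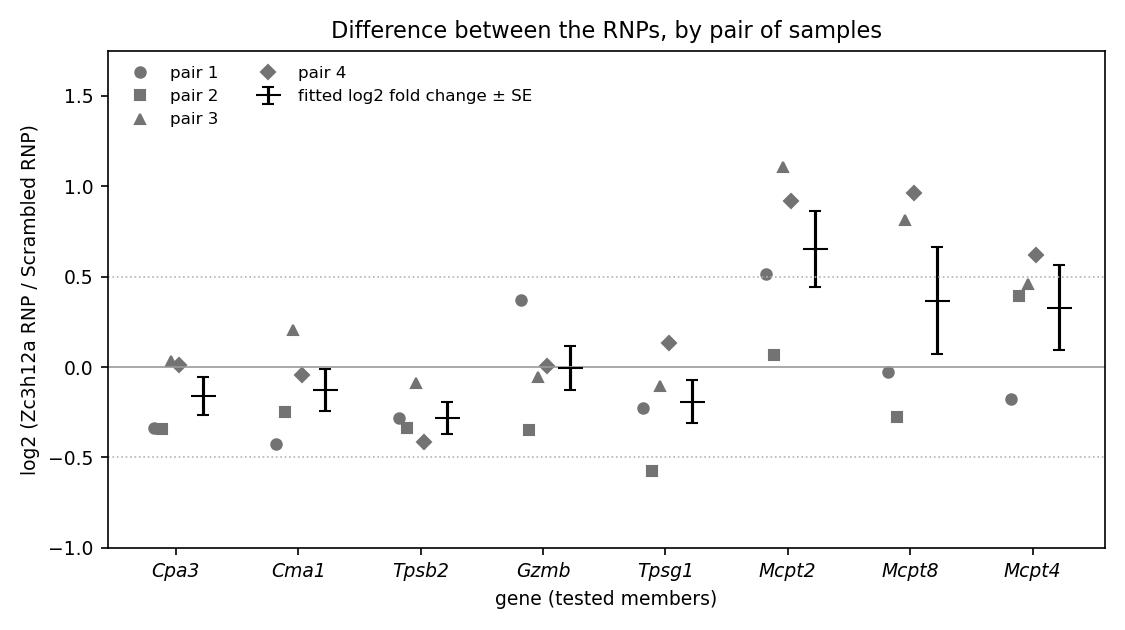
Difference between *Zc3h12a* RNP and Scrambled RNP for the 8 tested members on the log2 scale, with 1 grey symbol per pair and the fitted log2 fold change with its standard error in black; dotted lines mark 0.5 in either direction. Symbols are on 1 side of 0 for *Mcpt2* (above) and *Tpsb2* (below) and on both sides for the other 6 genes.

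Over all 8 samples, members differed between the replicate numbers no more often than genes in general. A test of the 3 replicate coefficients with the RNP in the model (quasi-likelihood F test of edgeR, adjusted p of at most 0.05) called 2 of 8 members, *Gzmb* and *Mcpt2*, where 28% of all genes tested were called (4186 of 14934). The mouse, its culture and its library preparation cannot be told apart in this effect. *Gzmb* was highest in both samples of number 3, next in both of number 4 and lower in all 4 samples of numbers 1 and 2. Replicate number held 93.7% of the variation of its log2 CPM and the RNP 0.0033%, and the means of the numbers spanned 1.18 on the log2 scale (edgeR, adjusted p = 0.00659). Without replicate 3 this call was lost (adjusted p = 0.0867), and without replicates 1, 2 or 4 it held (adjusted p = 0.0205, 8.5e-05 and 0.00516, edgeR). For *Mcpt2* the adjusted p was 0.0414 in edgeR, with a span of 1.27. It was 0.0107 without replicate 2 and lost the threshold without replicate 1, 3 or 4 (0.0890, 0.113 and 0.165).

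*Mcpt4* and *Mcpt8* did not pass this test over all samples (edgeR, adjusted p = 0.0966 and 0.0859), although the means of their numbers spanned 1.25 and 1.63 on the log2 scale and number 4 was lowest for both. Without replicate 2 both passed (0.0394 and 0.00609). *Tpsb2* had an adjusted p of 0.0850 (edgeR) with a span of 0.48, and was highest in number 4, where *Mcpt2*, *Mcpt4* and *Mcpt8* were lowest. For *Cpa3*, *Cma1* and *Tpsg1* the spans were 0.18, 0.24 and 0.16 and the adjusted p-values 0.697, 0.601 and 0.865 (edgeR). The median span was 0.83 over the 8 members and 0.76 over all genes tested. From the lowest to the highest of the 8 samples, CPM spanned 1.28-fold for *Cpa3*, 1.38-fold for *Cma1*, 1.49-fold for *Tpsg1*, 1.66-fold for *Tpsb2*, 2.61-fold for *Gzmb*, 3.55-fold for *Mcpt4*, 4.59-fold for *Mcpt2* and 5.96-fold for *Mcpt8*. The abundant genes other than *Gzmb* were thus the steady ones. The lowest *Mcpt8* value, in Scrambled RNP sample 4, rested on 30 counts (exact 95% interval 20.2 to 42.8), in the library with the fewest counts.

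**Figure D4:**
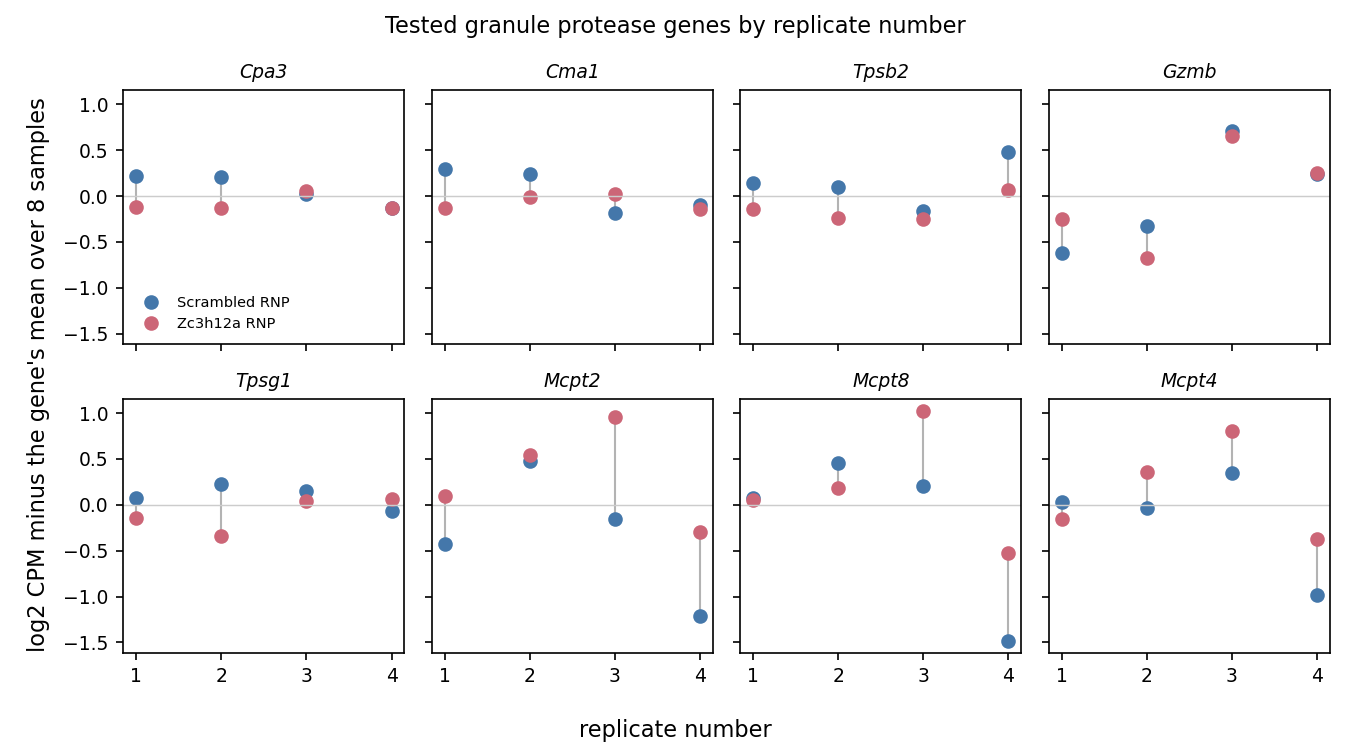
log2 CPM of each tested member minus its mean over the 8 samples, by replicate number, with Scrambled RNP in blue, *Zc3h12a* RNP in red and a grey line joining each pair. *Gzmb* is high at numbers 3 and 4 in both groups, *Mcpt2*, *Mcpt8* and *Mcpt4* are lowest at number 4, and *Cpa3*, *Cma1* and *Tpsg1* stay within 0.5 of their means.

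The members were compared with each other by the root mean square difference of these centred log2 profiles over the 8 samples, where 0 would be an identical pattern. *Cpa3* and *Cma1* were the most alike pair (0.089), followed by *Cpa3* and *Tpsg1* (0.12). Among the scarce genes, *Mcpt2* and *Mcpt8* differed by 0.28, *Mcpt4* and *Mcpt8* by 0.29, and *Mcpt2* and *Mcpt4* by 0.33. *Tpsb2* and *Mcpt8* were the least alike, at 0.89. The counts of *Cma1* per count of *Cpa3* ranged from 0.245 to 0.307, those of *Tpsb2* from 0.166 to 0.315 and those of *Gzmb* from 0.0359 to 0.104. Scrambled RNP sample 4 had the most *Tpsb2* per *Cpa3* (0.315), and its partner, *Zc3h12a* RNP sample 4, the next most (0.235). The counts of *Mcpt2* per count of *Mcpt4* were 1.07 to 2.17 with Scrambled RNP and 1.60 to 1.79 with *Zc3h12a* RNP. The 8 points of a profile come from 4 pairs of libraries and are not independent.

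Among the tested members *Mcpt8* and *Mcpt2* varied most over the 8 samples, and the 3 genes with the nearest profiles were taken for each, from 9667 genes whose mean log2 CPM was above 2. For *Mcpt8* these were *Gins2* (0.186), a subunit of the replication helicase, *Cenpm* (0.197), a centromere protein, and *Dctpp1* (0.209), a nucleotide pyrophosphatase. For *Mcpt2* they were *Dut* (0.206), the dUTPase, *Epdr1* (0.212) and again *Gins2* (0.218). *Gins2* ranged from 5.95 to 27.0 CPM. A search of 9667 genes over 8 samples finds near profiles by its size alone, so no link to these genes can be read from it.

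Of the non-member genes of the chymase locus, 8 had counts and 4 were tested, and 0 passed the thresholds between the RNPs (3 above 0 and 1 below). *Ctsg*, cathepsin G, a chymase relative stored by neutrophils and mast cells, had 37.1, 108, 119 and 11.5 CPM with Scrambled RNP and 30.2, 99.2, 172 and 18.6 CPM with *Zc3h12a* RNP. Numbers 2 and 3 were high and number 4 lowest in both groups. *Mcpt8* and *Mcpt4* were also lowest in number 4. For *Ctsg* the test of the replicate number gave an adjusted p of 0.00140 (edgeR). The log2 fold change between the RNPs was 0.18 for *Ctsg*, -0.17 for *Cma2*, a chymase gene that lies next to *Cma1*, and 0.58 for *Gzmc*, granzyme C, which had at most 32 counts (edgeR, adjusted p = 0.966 for each). Of the tryptase-like genes listed from chromosome 17, 6 had counts and 1 was tested, *Prss34*, the basophil protease mMCP-11, at 1.44 ± 0.308 and 1.37 ± 0.609 CPM (SD, n = 4 each; edgeR, adjusted p = 0.977).

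A list of 16 genes was drawn up around the activation, storage and inhibition of granule proteases. Some cathepsins and cystatins on it are not particular to these proteases. All 16 were tested, 0 passed both thresholds and the median log2 fold change was -0.11. There were 5 above 0 and 11 of 16 below, where 42.2% of all genes were below. With total counts in place of TMM 10 of 16 were below, against 27.8% of all genes. The shares of all genes given here cover genes of every level, and none was taken among genes of like level. At an unadjusted p at or under 0.05 there were 5 of 16, all lower after *Zc3h12a* RNP, against 6.2% of all genes in either direction. *Srgn*, serglycin, the core protein that holds proteases in the granule, was at 3967 ± 605 and 3374 ± 386 CPM (SD, n = 4 each), and its log2 fold change was -0.23 with a standard error of 0.088 (edgeR, adjusted p = 0.755). *Ctsc*, cathepsin C, which removes the activation dipeptide of chymases and granzymes, had a log2 fold change of -0.23 (edgeR, adjusted p = 0.733). *Serpinb1a*, an inhibitor of chymotrypsin-like and elastase-like proteases, had a log2 fold change of -0.31 (edgeR, adjusted p = 0.684). The other 2, *Cst3* and *Serpinb6a*, were named after their values were seen and had -0.19 and -0.18. Of the 16, 6 were lower in 4 of 4 pairs (the 5 above and *Ctsz*), as were 8.54% of all genes. This list was chosen with earlier results known.

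The cells carried the transcripts of mast cells. The sum of 9 mast cell genes (*Kit*, *Fcer1a*, *Ms4a2*, *Fcer1g*, *Gata2*, *Mitf*, *Hdc*, *Il1rl1*, *Slc18a2*) was 14430 to 16835 CPM with Scrambled RNP and 14028 to 16285 CPM with *Zc3h12a* RNP, and 0 of the 9 were called. In the comparison 9 of 9 were below 0, where 42.2% of all genes were, but 8 with upper-quartile factors (39.6% of all genes) and 5 with total counts (27.8%). These shares too are over genes of every level, not over genes as abundant as the markers. *Hdc*, histidine decarboxylase, which makes histamine, had the lowest of the 9 log2 fold changes, -0.75 with a standard error of 0.23, at 147 ± 74.1 and 82.0 ± 20.6 CPM (SD, n = 4 each; edgeR, adjusted p = 0.640), and was lower in 4 of 4 pairs. Because *Mcpt8* and *Gzmb* are also known from other cells, the markers of those were read beside them. Of 5 basophil genes 4 were tested and 0 called, and their sum of 572 to 633 CPM with Scrambled RNP and 534 to 585 CPM with *Zc3h12a* RNP came mostly from *Cd200r3* (439 to 535 CPM). Nearly all the rest was *Il3ra* (65.0 to 120 CPM). *Prss34*, *Itga2* and *Cebpa* were at or below 2.25, 0.857 and 0.433 CPM in every sample. Of 7 T and natural killer cell genes 6 had counts and 2 were tested, with a sum of 1.13 to 6.38 CPM with Scrambled RNP and 2.79 to 5.43 CPM with *Zc3h12a* RNP. *Cd3e*, a T cell receptor subunit, made up most of the highest sums (0.433 to 5.47 CPM over the 8 samples), *Nkg7* reached 1.08 CPM, and perforin (*Prf1*) was at 0 in 7 of 8 libraries and at 0.0476 CPM in the other. Of 10 genes of neutrophils and granulocyte precursors 6 had counts and 1, *Ctsg*, was tested. Their sum of 11.9 to 120 CPM with Scrambled RNP and 18.8 to 172 CPM with *Zc3h12a* RNP came mostly from *Ctsg*, while *Mpo* and *Prtn3* were at or below 0.333 and 0.118 CPM. The sum of 8 macrophage genes was 8.85 to 11.6 CPM with Scrambled RNP and 9.22 to 11.9 CPM with *Zc3h12a* RNP. That of 4 eosinophil genes, 2 with counts, was 1.10 to 4.18 CPM and 0.493 to 1.63 CPM. The part of such cells in the levels of *Mcpt8* and *Gzmb* was not tested. The single marker genes named here, *Hdc* included, were chosen after their values were seen.

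Total counts were 19610240 to 33986762 per library, lowest in Scrambled RNP sample 4. The targeted gene *Zc3h12a* had 34.8 ± 6.65 and 33.2 ± 5.91 CPM (SD, n = 4 each) and was higher in 2 of 4 pairs, so its mRNA level gives no check of the labels.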

How the data were processed

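Poly(A) RNA of 8 BMMC samples was sequenced, 4 per RNP. Per the labels and methods, the authors checked reads with FastQC 0.11.9, aligned them to GRCm39 with HISAT2 2.2.1 and counted them per gene with featureCounts 2.0.1, and deposited the raw counts. The handling of reads with several matches and the strand setting are not given in the sources used here. A batch correction (removeBatchEffect) appears in the methods, and the values deposited are whole numbers without it.

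Tests used edgeR 4.0.16 under R 4.3.3 (TMM, filterByExpr within groups, quasi-likelihood fit of replicate number and RNP), after a test on simulated data. A call needed a log2 fold change beyond 0.5 and an adjusted p (Benjamini-Hochberg) of at most 0.05. Standard errors are the absolute log2 fold change over the square root of F. Pair differences used log2 CPM with a prior count of 2, and the sign-flip test ran over all 16 sign assignments. Total counts were 19610240 to 33986762 per library, and the precision of a fold change also depends on the spread between samples. Alternatives were DESeq2 1.42.0, limma-trend (limma 3.58.1), removal of the replicate effect, no block, other normalizations and filters, and each replicate left out.

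The pairing rests on the replicate numbers in the labels and on the 4 mice of the design text, which does not tie a number to a mouse. Within a replicate number, deviations from the group means correlated at 0.595, 0.0752, 0.624 and 0.0414 over all genes tested (highest between other samples, 0.398), and at 0.756, 0.717, 0.728 and 0.719 over 9668 genes with a mean log2 CPM above 2 (0.137). All samples of a group differed by more than sampling noise (chi-square per degree of freedom at least 58.3).

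The members and lists were chosen with earlier results of these data known. Named genes were all members, *Zc3h12a*, the 2 genes of each list of other protease genes with the highest mean CPM and the 2 with the lowest p, and the 3 nearest profiles to each of the 2 tested members that varied most. Other genes were named after their values were seen. Lengths, positions and shared stretches of 50 bases came from GENCODE M39 with Biopython 1.88 in Python 3.11.15.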

Additional observations from a re-analysis of the deposited data

Results flagged for a closer look

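In 50 sets of 4 samples, an extreme sample was marked where its gap to the nearest other sample, divided by the group's range, was above the 95% limit for 4 samples. Chance marks about 1 in 20 such sets, and 5 were marked here. *Cpa3* in *Zc3h12a* RNP sample 3 had 30488 CPM, above the next sample at 27073, with a ratio of 0.916. *Tpsb2* per *Cpa3* count in Scrambled RNP sample 4 was 0.315 against 0.195 in the next sample, with a ratio of 0.902. *Cma1* per *Cpa3* count was marked in Scrambled RNP sample 3, where it was lowest at 0.245 (ratio 0.855), and in *Zc3h12a* RNP sample 2, where it was highest at 0.307 (ratio 0.911). The targeted gene *Zc3h12a* had 24.9 CPM in Scrambled RNP sample 1, below the next sample at 37.1, with a ratio of 0.846.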

How the results depend on the processing

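The count of tested members called between the RNPs was 0 to 1 when a replicate was left out (1 without replicate 2, *Mcpt2*) and 0 under every other alternative run. The count of all genes called was 0 and became 1 where every sample had to have 10 counts, with DESeq2's size factors or with limma-trend, 47 without the filter, 60 with DESeq2, 113 with the replicate effect removed before the test, and 0 to 156 when a replicate was left out (156 without replicate 2). Without the replicate block it was 0, for all genes and for members, so the block changed no call. The log2 fold change was then 0.61 for *Mcpt2* and -0.29 for *Tpsb2*. Their unadjusted p rose to 0.136 and 0.0856 (edgeR), so neither was at or under 0.05 without the block. *Gzmb* reversed its sign without the filter (0.028), with total counts (0.062), with upper-quartile factors (0.0051) and without replicate 2 (0.17; -0.087 to 0.17 over the replicates left out), and *Cma1* without replicate 1 (0.014; -0.29 to 0.014). The other 6 kept their direction in 14 of 14 alternatives each, with *Mcpt2* at 0.44 to 0.91 (adjusted p 0.0342 to 1, from edgeR, limma and DESeq2), *Tpsb2* at -0.40 to -0.20 (0.125 to 1), *Mcpt4* at 0.23 to 0.54, *Mcpt8* at 0.16 to 0.64, *Cpa3* at -0.28 to -0.036 and *Tpsg1* at -0.30 to -0.0054. Members higher in every pair were 0 with DESeq2's size factors. For the replicate number, leaving out replicate 1, 2, 3 or 4 gave 1680, 2557, 1518 and 2895 genes called. The tested members called in these runs were 1, 4, 0 and 1 of 8. No share of all genes tested is given for these runs, so whether members were called more often there is not settled here. The cause of these changes was not tested, except that fewer samples enter when a replicate is left out. *Mcpt1* and *Tpsab1* had at most 11 and 3 counts in a library, too few to be tested.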
